A study of Mus musculus with 54 samples.

Results

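Glutamine, glutamate and the amino groups they carry were followed through 9 genes of mouse peritoneal macrophages, chosen by symbol as Glul, Glud1, Got1, Got2, Gpt, Gpt2, Slc1a5, Slc38a2 and Asns, out of 39179 genes in the count files. All 9 genes passed the expression filter in both experiments, with 16110 genes tested in the polarization experiment and 14172 in the reprogramming experiment. The macrophages came from C57BL/6 mice aged 8 to 20 weeks, harvested as adherent peritoneal exudate cells 4 days after an injection of thioglycolate medium, and no sort separated them from other adherent cells. In the polarization experiment, cells of 3 mice were kept for 24 h without stimulus (M0), with LPS (100 ng/ml) plus IFN-γ (50 ng/ml, M1-like) or with 10 ng/ml IL-4 (M2-like). In the reprogramming experiment, 12 conditions had 3 replicates each. They were M0, M1-like and M2-like macrophages, untransfected or mock (transfection reagent without siRNA), and M2-like macrophages with a negative siRNA pool, with single siRNA pools against Myc, E2f1, Pparg or Stat6 (siMyc, siE2f1, siPparg, siStat6), or with the combined pool against all 4 of these genes (iM1). Stimulated cells were polarized for 24 h before transfection. RNA of transfected cells was taken 48 h after transfection, and IL-4 was left out of the medium from then on. The paper does not state a harvest time separately for the untransfected conditions of this experiment. The labels do not tie the replicates of the reprogramming experiment to animals, so p-values there measure the spread between these samples.

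Glutamine synthetase (Glul) joins ammonia to glutamate and is the only enzyme of mammals that makes glutamine. Glutamate dehydrogenase (Glud1) takes glutamate to α-ketoglutarate in the mitochondrion, and the transaminases move its amino group to oxaloacetate, giving aspartate (Got1 in the cytosol, Got2 in the mitochondrion), or to pyruvate, giving alanine (Gpt in the cytosol, Gpt2 in the mitochondrion). Slc1a5 (ASCT2) and Slc38a2 (SNAT2) bring glutamine and other neutral amino acids into the cell, and asparagine synthetase (Asns) spends glutamine to turn aspartate into asparagine. Asns is a textbook target of ATF4, the transcription factor that cells use when amino acids run short or the endoplasmic reticulum is stressed, and Slc38a2 belongs to the same response. In macrophages, glutamine is known as a source of nitrogen and carbon for nucleotides, glutathione and the citrate cycle.

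On GRCm38, the protein-coding genes lie at chr1:153899944-153909723 (Glul, plus strand), chr14:34310727-34345265 (Glud1, plus), chr19:43499752-43524605 (Got1, minus), chr8:95864134-95888547 (Got2, minus), chr15:76695716-76699686 (Gpt, plus), chr8:85492576-85527560 (Gpt2, plus), chr7:16781340-16798274 (Slc1a5, plus), chr15:96687392-96699730 (Slc38a2, minus) and chr6:7675169-7693254 (Asns, minus). The RefSeq table of promoters (GRCm38.p6) held 7 of the 9 genes, and Gpt and Slc1a5 were not among them. The core of the amino acid response element, TGATGNAA, was searched on both strands in the 250 bases before and 50 bases after the start of each gene, since Asns is the member with the widest spread and moved with other amino acid response genes. It was found in 2 of the 7 promoters, those of Asns and Got1, and in 1304 of all 32851 promoters, or 3.97%. The E-box CACGTG, which MYC can bind, was in 0 of the 7 and in 7.15% of all promoters, and the E2F letters TTTCCCGC or TTTGGCGC were in 0 of the 7 and in 1.56%. The 250 bases before the start are shown 5′ to 3′ for Asns (chr6:7693210-7693459, minus strand) and Got1 (chr19:43524606-43524855, minus strand), with the matched letters in capitals. Starts are those of the RefSeq table. For Asns that start lies inside the gene span given above, so the bases shown overlap that span and the match falls within it. Counted from the RefSeq start, the match in Asns lay 23 to 16 bases before it and read forward. In Got1 the match lay 102 to 95 bases before the start on the opposite strand.
Asns: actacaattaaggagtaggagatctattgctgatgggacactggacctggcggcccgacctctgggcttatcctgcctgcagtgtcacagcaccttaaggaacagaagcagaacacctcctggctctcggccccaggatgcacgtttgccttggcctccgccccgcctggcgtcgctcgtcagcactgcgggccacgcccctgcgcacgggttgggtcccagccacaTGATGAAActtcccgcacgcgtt
Got1: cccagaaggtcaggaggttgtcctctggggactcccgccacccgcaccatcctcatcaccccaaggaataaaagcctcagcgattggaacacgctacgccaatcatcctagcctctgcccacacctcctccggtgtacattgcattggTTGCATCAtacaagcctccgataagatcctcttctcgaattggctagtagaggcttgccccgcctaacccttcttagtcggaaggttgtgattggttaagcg

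Between 39577911 and 59443987 reads per mouse and condition were counted in the polarization experiment, and between 13421854 and 19704195 per library in the reprogramming experiment. Of the 9 genes, Gpt had the fewest reads, 61 to 228 per mouse and condition and 66 to 131 per library. The 6 macrophage markers (Adgre1, Csf1r, Cd68, Itgam, Lyz2, Mertk) summed to 10129 to 17334 CPM (counts of a gene scaled to the library total, with TMM library sizes) in the polarization experiment and 6162 to 18252 CPM in the reprogramming experiment, and were lowest in M1-like macrophages. Lists of neutrophil, T cell, B cell, mast cell, eosinophil, dendritic cell and mesothelial markers each summed to at most 46.1 CPM, and the highest value was that of 4 eosinophil markers in siPparg. The B cell, eosinophil and mesothelial lists were also lowest in M1-like macrophages of the reprogramming experiment, at 0.733 to 2.36, 0.611 to 1.70 and 0.295 to 1.20 CPM. So were the neutrophil and mast cell lists, at 0 to 0.244 and 0.126 to 0.803 CPM. At 24 h the eosinophil list was at 0.271 to 0.817 CPM in M1-like macrophages, against 14.05 to 19.1 CPM in M0 and M2-like. The mesothelial list was then at 0.135 to 0.395 CPM, against 0.435 to 1.06 CPM. The other lists did not lie wholly below both conditions at 24 h. The part of all these lists in the results was not tested. Among these markers, 1 eosinophil gene was at 0 throughout the polarization experiment and 1 neutrophil gene throughout the reprogramming experiment. The M1-like markers Nos2 and Il12b summed to 11192 to 14238 CPM in M1-like macrophages at 24 h and to 422 to 824 CPM in those of the reprogramming experiment, against at most 2.86 CPM elsewhere, and the M2-like markers (Arg1, Chil3, Retnla, Mrc1) were at 6014 to 7654 CPM in M2-like macrophages at 24 h and at 713 to 1828 CPM in the conditions that started from them. In bulk samples, fewer cells of a type and less RNA per cell cannot be told apart. The targets of the siRNA pools stood at 38.0% ± 8.0 (Myc), 25.2% ± 4.1 (E2f1), 21.9% ± 2.6 (Pparg) and 27.3% ± 5.8 (Stat6) of their mean with the negative pool (SD, n = 3) under the single pools, and at 39.6% ± 3.2, 60.4% ± 2.0, 28.3% ± 2.2 and 54.0% ± 4.8 in iM1. Replicate 3 of all 8 conditions that started from M2-like macrophages stood apart in Asns and Slc38a2, which is described with these genes. Calls that changed when it was left out are given with and without it. Leaving it out also lowers the number of replicates, so a lost call cannot be tied to its values alone.

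Per length of the exons (RPKM), the 9 genes of M0 macrophages in the polarization experiment ranged from 46.8 ± 0.713 (Glud1) and 37.9 ± 1.33 (Glul) down to 3.44 ± 0.108 (Gpt2) and 1.22 ± 0.0212 (Gpt), with SD over 3 mice. Got1 was at 27.3 ± 0.390 RPKM, and Asns, Slc38a2, Slc1a5 and Got2 lay close together between 15.4 ± 1.46 and 11.2 ± 0.319 RPKM. Thus the transcript of the cytosolic aspartate transaminase exceeded that of the mitochondrial enzyme, whereas for alanine the mitochondrial Gpt2 exceeded the cytosolic Gpt.

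**Figure D1:**
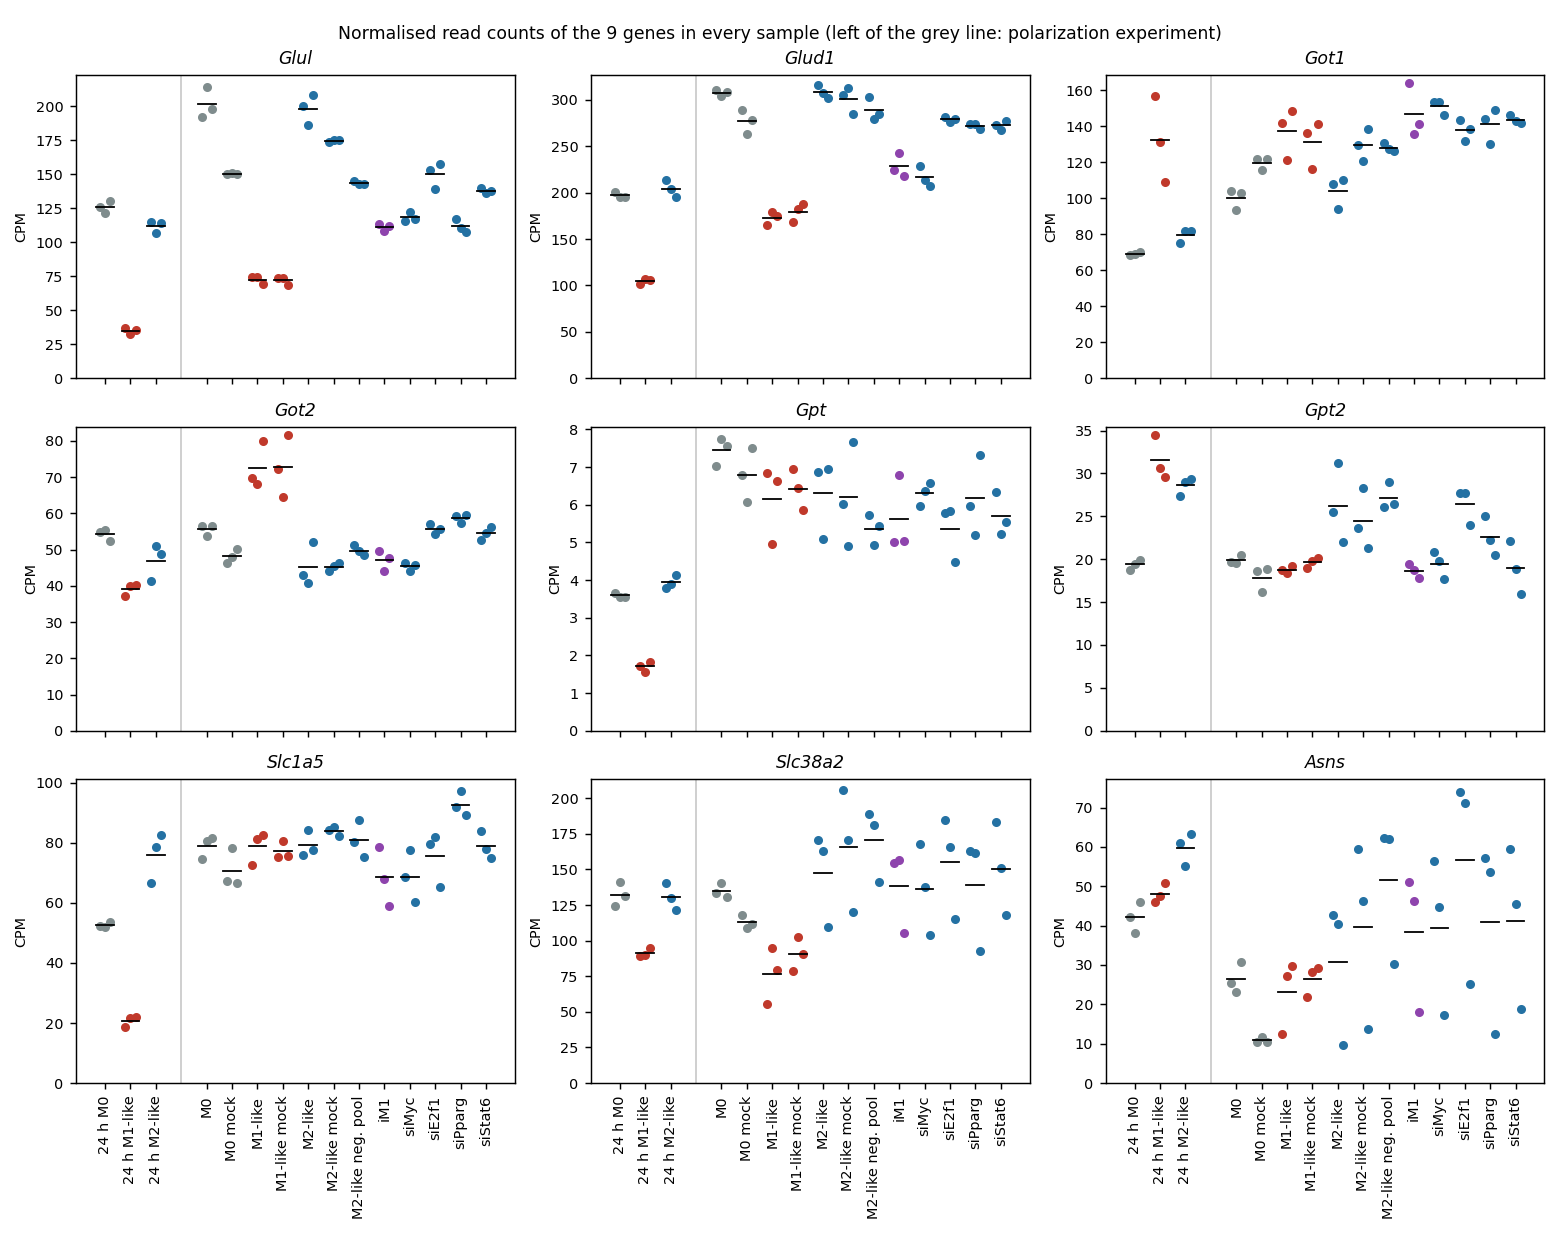
CPM (linear axis from 0) of each of the 9 genes in every sample, 1 point per mouse and condition or per library, with the mean of 3 as a black bar. Grey is M0, red M1-like, blue M2-like and its siRNA treatments, purple iM1. Glul and Glud1 are lowest in M1-like macrophages in both experiments, and Asns spreads widest in the conditions that started from M2-like macrophages.

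M1-like polarization for 24 h moved every member. Against M0, 3 of the 9 were higher in M1-like macrophages (Got1, Gpt2, Asns), where 35.4% of all tested genes were called higher, and 6 were lower (Glul, Glud1, Got2, Gpt, Slc1a5, Slc38a2), where 37.5% of all genes were called lower. A gene was called at an adjusted p under 0.05 (edgeR's quasi-likelihood test, two-sided, Benjamini-Hochberg over all tested genes). The median log2 fold change of the 9 was -0.53, against -0.04 over all genes. Against M2-like macrophages, 7 of the 9 were lower (38.1% of all genes), 1 was higher (34.6%) and Gpt2 was not called, with a median of -0.52 against -0.06 over all genes. Fewer members moved under IL-4. Against M0, Gpt2, Slc1a5 and Asns were higher in M2-like macrophages (3 of 9, with 13.5% of all genes higher) and 0 of 9 were lower (14.4% of all genes), with a median of 0.14 against 0.00.

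Glul, which makes glutamine, was at 126, 122 and 131 CPM in M0 macrophages of mouse 1, 2 and 3, at 37.2, 32.4 and 35.2 CPM in M1-like macrophages and at 115, 107 and 114 CPM under IL-4 (M2-like). The 3 conditions did not overlap, and M1-like macrophages held 3.61-fold less than M0 (log2 fold change -1.85 ± 0.07 SE, adjusted p = 1.07e-10). The step from M0 to M2-like macrophages was small and not called (-0.17 ± 0.06, adjusted p = 0.0597). Glud1, which feeds glutamate carbon into the citrate cycle, moved alike at a smaller size. It was at 201, 195 and 195 CPM in M0, 101, 107 and 106 CPM in M1-like macrophages and 214, 204 and 195 CPM under IL-4, so that M1-like macrophages lay apart and M0 and M2-like overlapped (against M2-like -0.96 ± 0.06, adjusted p = 1.29e-08).

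Within each pair of transaminases, the cytosolic and the mitochondrial enzyme moved in opposite directions from M0 in M1-like macrophages at 24 h. Got1 and Gpt2 were higher, and Got2 and Gpt were lower. Got1, the cytosolic aspartate transaminase, was at 68.6, 68.8 and 70.4 CPM in M0, 156, 131 and 109 CPM in M1-like macrophages and 75.0, 81.9 and 81.6 CPM under IL-4. It was the highest in M1-like macrophages of every mouse (against M2-like 0.73 ± 0.10, adjusted p = 4.36e-05), with more spread among the M1-like samples than in M0. Its mitochondrial partner Got2 was at 54.8, 55.3 and 52.4 CPM in M0, 37.2, 40.0 and 40.2 CPM in M1-like macrophages and 41.5, 50.9 and 48.7 CPM under IL-4, with M1-like lowest (against M0 -0.47 ± 0.08, adjusted p = 0.000138). Per length, the ratio of Got1 to Got2 was 6.46 ± 1.44 in M1-like macrophages (SD, n = 3, range 5.15 to 7.998), 3.23 ± 0.193 in M2-like (3.06 to 3.44) and 2.43 ± 0.105 in M0 (2.36 to 2.55). The alanine transaminases also parted. Gpt, at 3.66, 3.56 and 3.55 CPM in M0, fell in M1-like macrophages to 1.73, 1.56 and 1.83 CPM (-1.07 ± 0.11, adjusted p = 3.29e-06). Gpt2, at 18.8, 19.4 and 19.96 CPM in M0, rose to 34.5, 30.7 and 29.6 CPM in M1-like (0.70 ± 0.07, adjusted p = 2.2e-06) and to 27.4, 29.1 and 29.4 CPM in M2-like macrophages (0.56 ± 0.07, adjusted p = 0.000159). Gpt2 was thus higher under both stimuli, and the difference between them was not called (0.14 ± 0.07, adjusted p = 0.0875), although the M1-like and M2-like values did not overlap.

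The widest gap between M1-like and M2-like macrophages belonged to the importer Slc1a5. It was at 52.4, 51.9 and 53.5 CPM in M0, 18.8, 21.5 and 21.9 CPM under LPS and IFN-γ and 66.6, 78.5 and 82.6 CPM under IL-4. The stimuli moved it in opposite directions from M0 (M1-like -1.34 ± 0.09, adjusted p = 3.13e-08, M2-like 0.53 ± 0.08, adjusted p = 0.00067), and M2-like macrophages held 3.66-fold more than M1-like. Slc38a2, the other importer, was at 124, 141 and 132 CPM in M0, 89.5, 89.9 and 94.8 CPM in M1-like macrophages and 140, 130 and 122 CPM under IL-4, and fell only under LPS and IFN-γ of these stimuli (M1-like against M0 -0.53 ± 0.07, adjusted p = 2.04e-05, M2-like against M0 -0.02 ± 0.07, adjusted p = 0.869). Asns, which spends glutamine for asparagine, was at 42.3, 38.1 and 46.1 CPM in M0, 45.9, 47.6 and 50.9 CPM under LPS and IFN-γ and 60.9, 55.1 and 63.3 CPM under IL-4. M2-like macrophages lay above both other conditions in every mouse (against M0 0.50 ± 0.08, adjusted p = 0.000786). M1-like and M0 overlapped, and the call there (0.19 ± 0.08, adjusted p = 0.0496) was lost without M0 mouse 1 (0.22), M0 mouse 2 (0.12), M1-like mouse 2 (0.20) or M1-like mouse 3 (0.15).

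In the reprogramming experiment the same stimuli gave a different set of calls. In untransfected M1-like against M2-like macrophages, 4 members were lower (Glul, Glud1, Gpt2, Slc38a2, with 30.2% of all genes lower) and 2 were higher (Got1, Got2, with 31.3% of all genes higher), and the median of the 9 was -0.41 against 0.03 over all genes. With mock transfection, 4 were lower (the same 4 genes, 29.8% of all genes lower) and 1 was higher (Got2, 30.9%), with a median of -0.31 against 0.03. Against M0, untransfected M1-like macrophages had 3 lower (Glul, Glud1, Slc38a2, 28.7% of all genes lower) and 2 higher members (Got1, Got2, 29.0%), and mock M1-like macrophages had 2 lower (Glul, Glud1, 30.0%) and 1 higher (Got2, 30.3%). In untransfected M2-like against M0 macrophages, Gpt2 was higher (1 of 9, 10.7% of all genes higher) and Got2 was lower (1 of 9, 9.19%), and both calls were lost without M2-like replicate 2 (0.25 and -0.22). In mock M2-like against M0 macrophages, Gpt2 (0.45) and Glul (0.22) were higher (2 of 9, 2.19%) and 0 were lower (1.64%). The call for Gpt2 was lost without M0 mock replicate 2 (0.38) or M2-like mock replicate 2 (0.33), and that for Glul without any of the 6 libraries compared but M2-like mock replicate 3 (0.21 to 0.22) and also without replicate 3 of all conditions that started from M2-like macrophages (0.21).

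Glul and Glud1 kept the direction seen at 24 h. Glul was at 74.2, 74.4 and 69.5 CPM in untransfected M1-like macrophages, replicates 1 to 3, against 200, 186 and 208 CPM in M2-like and 192, 214 and 198 CPM in M0, so that M1-like macrophages lay far below both and M0 and M2-like overlapped (M1-like against M2-like -1.45 ± 0.06, adjusted p = 2.55e-20). Glud1 was at 165, 179 and 175 CPM in M1-like macrophages, far under the 316, 307 and 302 CPM of M2-like and the 311, 304 and 308 CPM of M0 macrophages. With mock transfection the differences of M1-like from M2-like macrophages were -1.28 ± 0.06 (Glul, adjusted p = 8.46e-19) and -0.75 ± 0.06 (Glud1, adjusted p = 6.41e-13). Slc38a2 was lower in M1-like macrophages too, at 55.4, 94.7 and 79.4 CPM against 171, 163 and 109 CPM in M2-like macrophages, and the groups did not overlap (-0.95 ± 0.23, adjusted p = 0.000569).

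Got2 turned. In the untransfected M1-like macrophages of the reprogramming experiment it was at 69.8, 68.2 and 79.9 CPM, above the 43.1, 40.7 and 52.0 CPM of M2-like macrophages and the 56.4, 53.7 and 56.6 CPM of M0 in every sample (against M2-like 0.68 ± 0.08, adjusted p = 3.88e-09), and mock transfection gave 72.3, 64.6 and 81.7 CPM in M1-like against 44.2, 45.5 and 46.3 CPM in M2-like macrophages. At 24 h its order was the opposite. The ratio of Got1 to Got2 per length was then lower in M1-like (3.59 ± 0.243, range 3.38 to 3.86) than in M2-like macrophages (4.39 ± 0.369, 4.02 to 4.76) of the reprogramming experiment, also the opposite of the 24 h samples. The experiments were sequenced at different places with reads of 50 nucleotides at a single end and of 150 nucleotides at both ends, and were normalised apart. Experiment, read length, time and, in transfected M2-like cells, culture without IL-4 therefore cannot be told apart. No test was run between the experiments.

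Slc1a5 and Gpt, both far lower in M1-like macrophages at 24 h, were not called between the stimuli in the reprogramming experiment. Slc1a5 was at 72.5, 81.2 and 82.6 CPM in M1-like macrophages, 76.0, 84.2 and 77.7 CPM in M2-like macrophages and 74.7, 80.7 and 81.6 CPM in M0, and the groups overlapped (M1-like against M2-like -0.01 ± 0.09, 95% interval -0.19 to 0.17, adjusted p = 0.936). Gpt ranged from 4.95 to 7.75 CPM over these 9 samples (-0.03 ± 0.17, 95% interval -0.35 to 0.29, adjusted p = 0.873). Gpt2 was at 18.8, 18.4 and 19.2 CPM in M1-like macrophages, near the 19.6, 19.5 and 20.5 CPM of M0, and at 25.5, 31.2 and 22.02 CPM in M2-like macrophages. Among the untransfected conditions of this experiment, Gpt2 thus stood highest in M2-like macrophages (M1-like against M2-like -0.48 ± 0.11, adjusted p = 0.000511). With mock transfection this difference was -0.31 ± 0.11 (adjusted p = 0.0176), and it was lost without M1-like mock replicate 1 (-0.29) or M2-like mock replicate 2 (-0.19). Got1 was higher in untransfected M1-like (142, 121 and 148 CPM) than M2-like macrophages (108, 93.8 and 110 CPM) without overlap (0.40 ± 0.08, adjusted p = 7.35e-05), whereas the mock-transfected groups overlapped, at 136, 116 and 141 CPM against 130, 121 and 139 CPM (0.02 ± 0.08, adjusted p = 0.862).

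**Figure D2:**
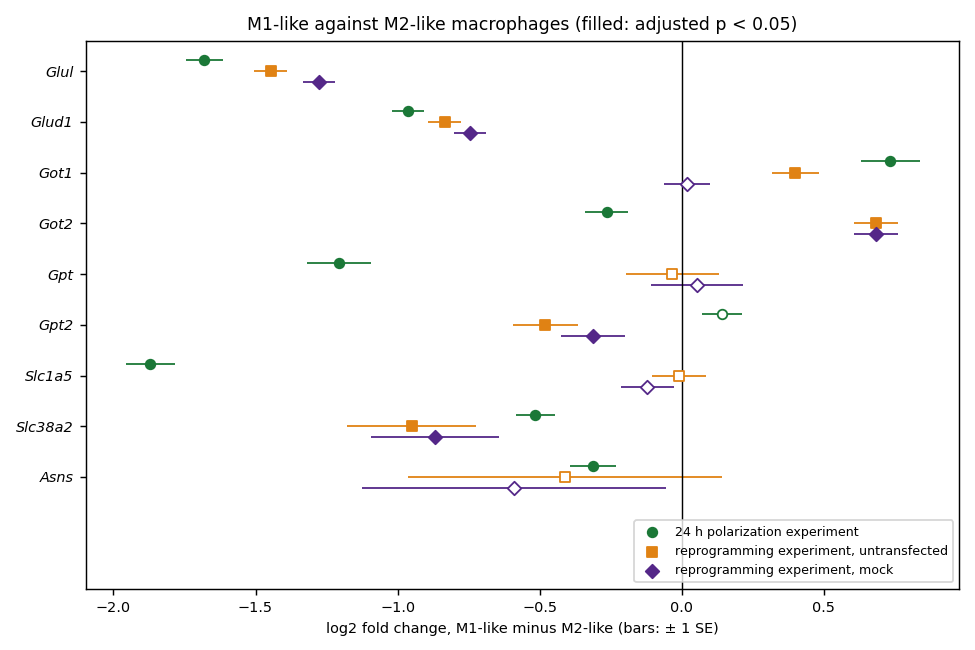
Log2 fold change of M1-like minus M2-like macrophages for each gene in the polarization experiment and in untransfected and mock-transfected macrophages of the reprogramming experiment, with bars of 1 SE. Filled symbols had an adjusted p under 0.05. Got2 lies at -0.27 at 24 h and at 0.68 in both comparisons of the reprogramming experiment, and Slc1a5 moves from -1.87 to -0.01 and -0.12.

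Mock transfection was set against no transfection in each state. In M0 macrophages, Glul fell from 202 ± 11.3 to 150 ± 0.482 CPM (mean ± SD, n = 3, -0.42 ± 0.06, adjusted p = 7.15e-07) and Got1 rose from 100.3 ± 5.76 to 120 ± 3.44 CPM (0.26 ± 0.08, adjusted p = 0.0220), which is 2 of 9 members where 20.4% of all genes were called in either direction, a share near that of all genes. In a fit of these 2 groups alone, 4 members were called (Glul, Got1, Asns and Slc38a2). Of all 12887 genes tested in that fit, 1397 were called higher and 951 lower. The Got1 call was lost without M0 replicate 2 (0.21), M0 mock replicate 1 (0.24) or M0 mock replicate 3 (0.24). Asns was at 25.5, 23.0 and 30.7 CPM in untransfected M0 and at 10.5, 11.7 and 10.5 CPM in mock M0, without overlap. The log2 fold change was -1.27 in the model of all 12 conditions, and its call depended on the fit, with adjusted p = 0.135 in that model (SE 0.60), 0.000183 in the fit of these 2 groups alone (SE 0.12) and 8.61e-10 in the model of all 12 conditions without the filter on low counts (SE 0.18). In M2-like macrophages Got1 alone was called (1 of 9, with 1.77% of all genes called), from 104 ± 8.83 to 130 ± 8.89 CPM (0.32 ± 0.08, adjusted p = 0.0253), a call lost without M2-like replicate 2 (0.25), M2-like mock replicate 1 (0.32) or M2-like mock replicate 3 (0.27), and without replicate 3 of all conditions that started from M2-like macrophages (0.31). In M1-like macrophages 0 of the 9 were called (0 at an unadjusted p under 0.05), and edgeR called 0 of all 14172 genes (0% of all), with 438 at an unadjusted p under 0.05 and likewise 0 calls by DESeq2. Tested directly, the difference between M1-like and M0 depended on mock transfection for Glul (interaction 0.41 ± 0.08, adjusted p = 0.000608, 1 of 9 members, with 9.07% of all genes called), while edgeR called 0 of 9 for M1-like against M2-like (1.13% of all genes) and for M2-like against M0 (5.66%), each with 2 members at an unadjusted p under 0.05 and 1 member called by DESeq2. The interaction for Got1 between M1-like and M2-like macrophages was -0.38 ± 0.11 (adjusted p = 0.140), and without M1-like replicate 2 it was -0.46 and was called.

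The negative siRNA pool, set against mock in M2-like macrophages, lowered Glul from 175 ± 0.843 to 144 ± 1.30 CPM (-0.28 ± 0.06, adjusted p = 0.00061), which was 1 of 9 members called where 11.7% of all genes were. The knockdowns are therefore compared with the negative pool, and all 5 comparisons share its 3 libraries.

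Combined knockdown lowered Glul, Glud1 and Gpt2. In iM1 macrophages 3 of the 9 were lower than with the negative pool (13.9% of all genes lower) and 0 were higher (12.5%), with a median log2 fold change of -0.30 against 0.01 over all genes. Glul was at 114, 108 and 112 CPM in iM1 against 145, 143 and 143 CPM with the negative pool (-0.37 ± 0.06, adjusted p = 8.37e-06), and Glud1 at 225, 242 and 218 CPM against 303, 279 and 285 CPM (-0.34 ± 0.06, adjusted p = 3.1e-05). Gpt2 was at 19.4, 18.7 and 17.8 CPM against 26.1, 28.9 and 26.5 CPM (-0.54 ± 0.11, adjusted p = 0.000486). For these 3 genes the iM1 values did not overlap with those of the negative pool. The share of all genes without overlap was not counted for this comparison. Against the same pool, 2 members did not overlap for siE2f1 and 5 for siStat6, where 0 and 1 member were called. Glul and Glud1 in iM1 remained above the M1-like macrophages, where mock transfection left 73.7, 74.1 and 68.4 CPM of Glul and 168, 183 and 187 CPM of Glud1, whereas Gpt2 in iM1 overlapped with the 19.0, 19.8 and 20.1 CPM of mock M1-like macrophages. Got1 (0.20 ± 0.08, adjusted p = 0.0649) and Got2 (-0.08 ± 0.08, adjusted p = 0.501) were not called, and Got2, the member that was higher in M1-like macrophages of this experiment, stood at 49.6, 44.2 and 47.7 CPM in iM1. Set against mock instead, iM1 had 4 members lower (Glul, Glud1, Gpt2 and Slc1a5, with 18.1% of all genes lower) and 0 higher (19.0%). There the call for Gpt2 (-0.39) was lost without M2-like mock replicate 2 (-0.27) and that for Slc1a5 (-0.29) without iM1 replicate 3 (-0.20) or without replicate 3 of all conditions that started from M2-like macrophages (-0.21).

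Among the single pools, siMyc had the most members called. The paper names Dharmacon as the source of the Myc pool and siTools Biotech for the other pools. Target and supplier therefore cannot be told apart when siMyc is set beside the other single pools. The same holds for the Myc part of iM1, and the supplier of the negative pool is not stated. Glul (116, 122 and 117 CPM), Glud1 (229, 213 and 207 CPM) and Gpt2 (20.8, 19.8 and 17.8 CPM) were lower than with the negative pool, 3 of 9 where 15.6% of all genes were lower, with log2 fold changes of -0.28 ± 0.06, -0.42 ± 0.06 and -0.48 ± 0.11 (adjusted p = 0.000292, 1.35e-06 and 0.00143). Got1 was higher, 1 of 9 where 13.9% of all genes were higher, at 153, 153 and 146 CPM against 131, 127 and 126 CPM (0.24 ± 0.08, adjusted p = 0.0228). That call was lost without siMyc replicate 1 (0.23), siMyc replicate 2 (0.23), negative pool replicate 2 (0.23) or negative pool replicate 3 (0.23), and without replicate 3 of all conditions that started from M2-like macrophages (0.25), although the groups did not overlap. The ratio of Got1 to Got2 per length was 6.32 ± 0.261 with siMyc and 5.91 ± 0.341 in iM1, against 4.89 ± 0.0460 with the negative pool (SD, n = 3). The knockdown of Pparg lowered Glul alone (117, 110 and 108 CPM, -0.36 ± 0.06, adjusted p = 5.97e-05, 1 of 9 members, with 5.74% of all genes called in either direction). Got2 (57.3 to 59.4 CPM) lay above the negative pool (48.4 to 51.2 CPM). It was not called here, but DESeq2 called it higher (0.24, adjusted p = 0.0490). Slc1a5 had its highest values of the whole experiment with siPparg, at 91.9, 97.2 and 89.1 CPM, above all 3 negative pool libraries, without being called (0.20 ± 0.09, adjusted p = 0.242). The knockdown of Stat6, the transcription factor downstream of IL-4, lowered Gpt2 alone (22.2, 18.9 and 15.9 CPM, -0.52 ± 0.11, adjusted p = 0.0121, 1 of 9, with 1.51% of all genes called). That call was lost without siStat6 replicate 2 (-0.51), siStat6 replicate 3 (-0.40) or negative pool replicate 2 (-0.47), and also without replicate 3 of all conditions that started from M2-like macrophages (-0.42 ± 0.11, adjusted p = 0.148). For siE2f1, edgeR called 0 of the 9 members (0.910% of all genes), with the members between -0.13 and 0.16, 1 of them (Got2) at an unadjusted p under 0.05 and 0 called by DESeq2. Differences between the knockdowns themselves were not tested.

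**Figure D3:**
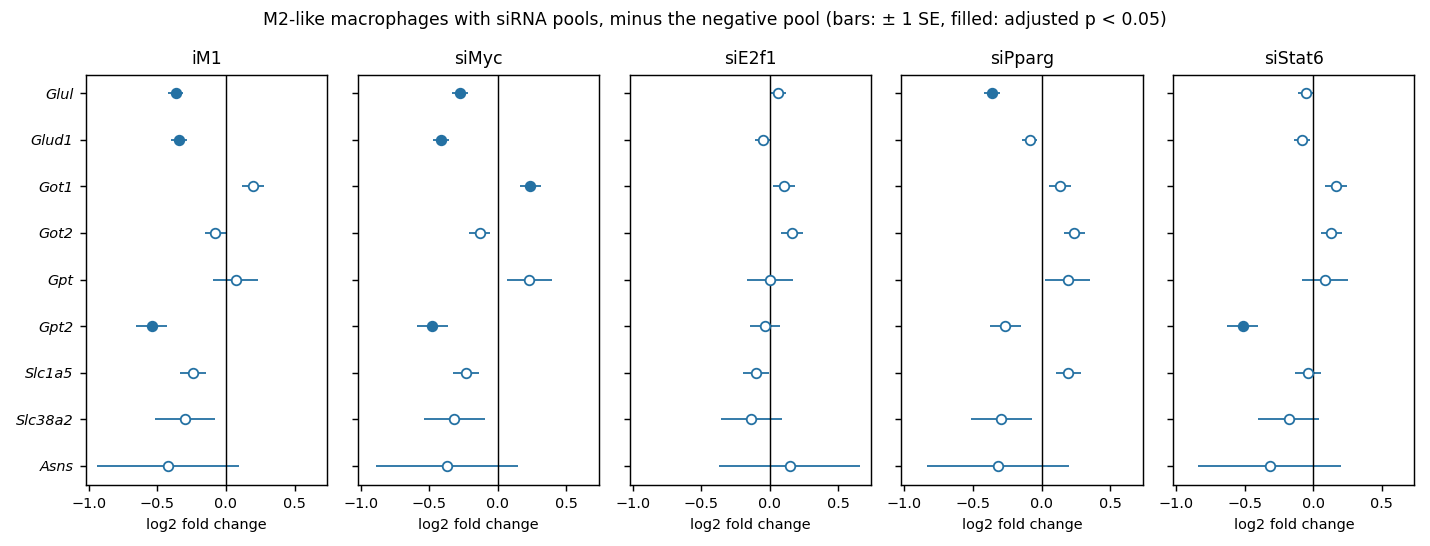
Log2 fold change of each gene in M2-like macrophages with the combined pool (iM1) or a single siRNA pool, minus the negative pool, with bars of 1 SE, filled where the adjusted p was under 0.05. Glul, Glud1 and Gpt2 are filled and below 0 for iM1 and siMyc, Glul alone for siPparg and Gpt2 alone for siStat6.

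Asns and Slc38a2 spread widely between replicates of the same condition. In all 8 conditions that started from M2-like macrophages, replicate 3 held the least Asns, 9.59 to 30.3 CPM, against 42.6 to 74.0 CPM in replicate 1 and 40.4 to 71.1 CPM in replicate 2. Replicate 3 lay 1.53 log2 units below the mean of the other replicates (median over the 8 conditions), the third largest shortfall of the 9011 genes with a mean log2 CPM of at least 3. Slc38a2 did the same at a smaller size, with 92.6 to 141 CPM in replicate 3 against 154 to 206 CPM in replicate 1 and 138 to 181 CPM in replicate 2, and a median difference of -0.58. In the 4 conditions of M0 and M1-like macrophages replicate 3 was in no case the lowest in Asns, and in untransfected M1-like macrophages replicate 1 was the lowest, with 12.5 CPM of Asns against 27.3 and 29.8 CPM. The other 7 members had median differences between -0.20 (Gpt2) and 0.06 (Gpt).

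Amino acid response genes went down with Asns in replicate 3. Of 15 tested genes of that list, 10 were lowest in replicate 3 in all 8 conditions, as were 181 of all 14172 genes (1.28%). They included Chac1, which degrades glutathione (median difference -1.89, with 1.65 to 4.86 CPM in replicate 3 and 5.35 to 14.2 CPM in replicates 1 and 2), Phgdh, which opens serine synthesis (-1.56), Trib3, a pseudokinase induced by ATF4 (-1.06), Mthfd2, of the mitochondrial folate cycle (-1.06), and Atf4 itself (-0.31). Mthfd2 and Atf4 were picked here after their values were seen. The core TGATGNAA shown for Asns was also present in the RefSeq promoters of Chac1 and Trib3, printed here as 30 bases around the match (capitals) at chr2:119351038-119351067 (plus strand) and chr2:152344028-152344057 (minus strand) to set beside the Asns promoter. Promoters of the other genes of that list are not shown, so how common the core is among them cannot be read from these examples. A match of letters is a description and does not show binding.
Chac1: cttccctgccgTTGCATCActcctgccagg
Trib3: ttagctcaggtTTACATCAgccgggcgggg
Got1, whose promoter holds the same core, had a median difference of -0.01 and was the lowest in replicate 3 in 3 of 8 conditions. Replicate 3 was sequenced as deeply as the others, with 14991635 to 18150125 counted reads per library against 14710257 to 19317922 in replicate 1. The summed M2-like markers (Arg1, Chil3, Retnla, Mrc1) had a median of 1103 CPM in replicate 3, against 1441 CPM in replicate 1 and 1653 CPM in replicate 2, and the macrophage markers of 12819, 12388 and 12409 CPM. Their part in the result was not tested.

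**Figure D4:**
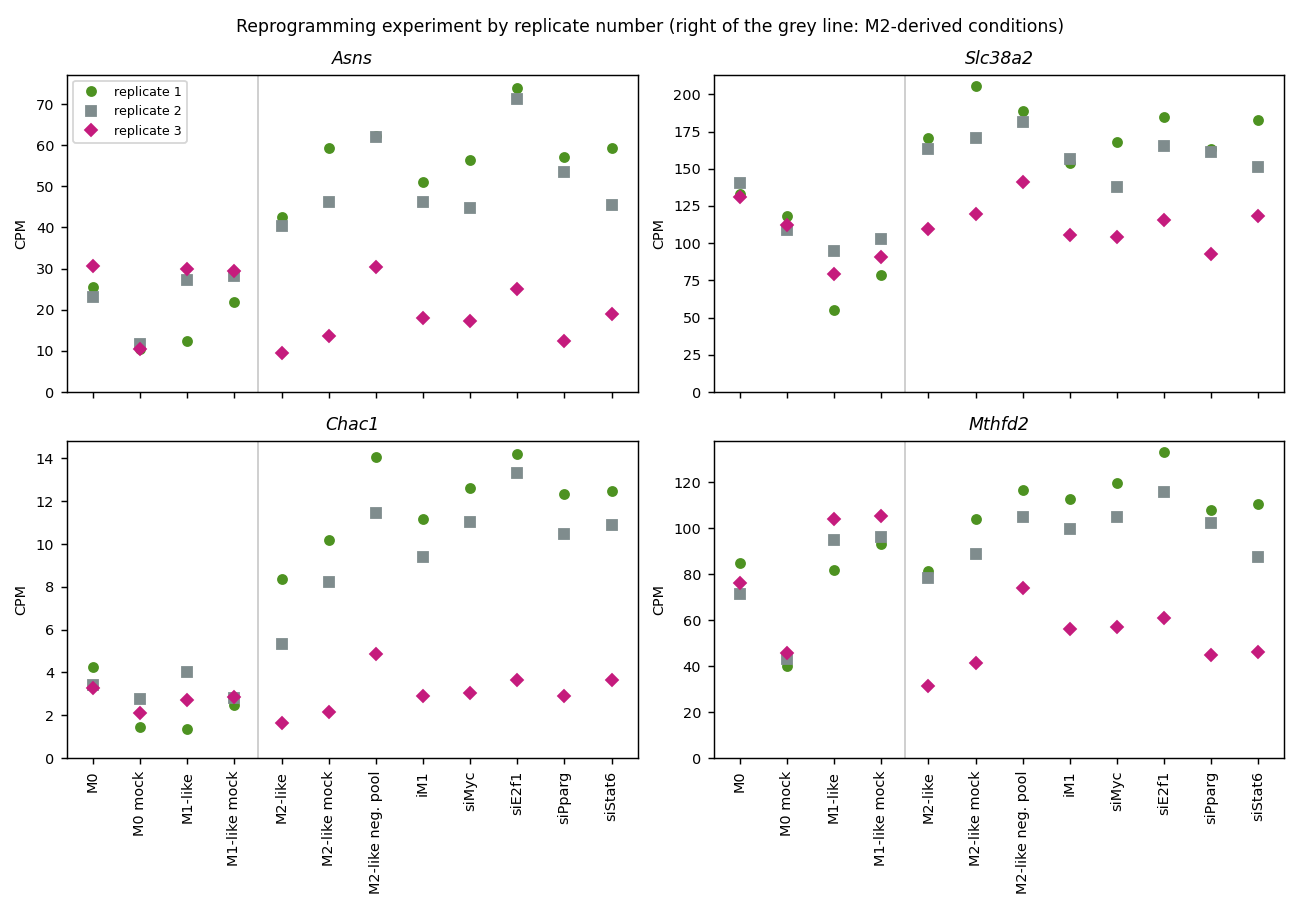
CPM (linear axis from 0) of Asns, Slc38a2, Chac1 and Mthfd2 in the 12 conditions of the reprogramming experiment, 1 symbol per replicate number. Right of the grey line, in the 8 conditions that started from M2-like macrophages, replicate 3 is below replicates 1 and 2 for all 4 genes, and left of it this holds for all 4 genes in no condition.

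The calls for Asns between conditions depended on the fit. The 3 mock M0 libraries (10.5 to 11.7 CPM) lay under all M1-like mock (21.9 to 29.3 CPM) and M2-like mock libraries (13.7 to 59.4 CPM), and the log2 fold changes were 1.28 ± 0.59 (adjusted p = 0.0612) and 1.87 ± 0.59 (adjusted p = 0.0681). With all libraries and no filter on low counts both were called (adjusted p = 9.97e-11 and 6.67e-20), and in fits of only the compared groups the first was (adjusted p = 8.53e-06) and the second was not (adjusted p = 0.0757). When replicate 3 of the 8 conditions was left out, a choice made after its values were seen, the SE fell to 0.21 and 0.22 and both were called, at 1.27 (adjusted p = 1.59e-05) and 2.27 (adjusted p = 4.73e-07). Asns was then also lower in mock than in untransfected M0 (-1.27 ± 0.21, adjusted p = 0.000119), lower in M1-like macrophages, set against M2-like, (-0.84 ± 0.21 untransfected, adjusted p = 0.00167, and -0.999 ± 0.21 mock, adjusted p = 0.000246) and higher in M2-like than in M0 untransfected (0.65 ± 0.21, adjusted p = 0.0358). For Slc38a2 the difference of M1-like from M2-like macrophages was called either way, at -0.95 ± 0.23 with and -1.13 ± 0.14 without replicate 3 (adjusted p = 0.000569 and 3.46e-07). Against the negative pool, neither gene was called in any of the 5 knockdown comparisons, with or without replicate 3, whereas without the filter on low counts Slc38a2 was called lower in iM1 (-0.30 ± 0.10, adjusted p = 0.0228) and with siMyc (-0.31 ± 0.10, adjusted p = 0.0160). The estimates for Asns with all libraries were between -0.42 (iM1, 95% interval -1.44 to 0.60) and 0.14 (siE2f1, -0.86 to 1.15), and without replicate 3 between -0.36 ± 0.22 and 0.22 ± 0.22.

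Over all 19 comparisons of conditions, many of which share libraries, Glul was called most often, lower in 12 and higher in 1, followed by Gpt2 (lower in 6, higher in 4) and Glud1 (lower in 9, higher in 0). Got1 was called higher in 7 and lower in 0, and Gpt was called in 2, both at 24 h. The matching counts over all genes were not made. In the comparisons of M1-like macrophages with M0 or M2-like, 28.7% to 38.1% of all genes were called in each direction. These counts alone therefore do not set a member apart from other genes. Ordered by mean in the reprogramming experiment, Glul ran from untransfected M0 (202 CPM) and M2-like (198 CPM), which overlapped, over M2-like mock (175 CPM), a middle group of M0 mock, siE2f1 and the negative pool (150 to 144 CPM) with overlap, siStat6 (138 CPM), and siMyc, siPparg and iM1 (119 to 111 CPM) with overlap, to M1-like macrophages (72.7 and 72.1 CPM). Between neighbours in this order, 5 of 11 steps separated all replicates for Glul, 3 for Got2, 2 each for Glud1, Got1 and Slc38a2, 1 each for Gpt2, Slc1a5 and Asns, and 0 for Gpt. Over all 14172 tested genes the median was 1 such step, with at least 2 in 19.5%, at least 3 in 6.36% and at least 5 in 0.677% of genes.

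Other genes that make, use or carry glutamine and glutamate were taken from lists made for this purpose. Their counts of calls stand beside the shares of all tested genes, which in M1-like against M2-like macrophages were 34.6% higher and 38.1% lower at 24 h, 31.3% and 30.2% untransfected and 30.9% and 29.8% with mock, and 12.5% higher and 13.9% lower in iM1 against the negative pool. Of 8 tested genes for breakdown of glutamine and for proline and ornithine, 7 were lower and 0 higher in M1-like macrophages, set against M2-like, at 24 h (median -0.71 against -0.06 over all genes), led by Aldh18a1, which starts proline synthesis from glutamate (9.46 ± 0.369 against 29.5 ± 2.55 CPM, -1.64 ± 0.08, adjusted p = 2.25e-09), and Prodh, which breaks proline down (-1.54 ± 0.15, adjusted p = 1.61e-06). In the reprogramming experiment 2 were lower and 0 higher untransfected and 5 were lower and 0 higher with mock, among the latter Aldh4a1 (-0.47), Prodh (-0.46) and Oat, the ornithine transaminase (-0.33), and in iM1 against the negative pool Oat alone was lower (57.4 ± 3.26 against 72.2 ± 2.06 CPM, -0.33 ± 0.07, adjusted p = 0.000846). Of 6 other tested transaminases, 5 were lower and 0 higher in M1-like macrophages at 24 h, where 38.1% of all genes were lower, and 4 of 7 were lower and 0 higher both untransfected and with mock (30.2% and 29.8% of all genes lower), with the branched-chain transaminases Bcat1 (-1.87 at 24 h, -2.64 mock) and Bcat2 (-1.04 and -0.99) lower in both.

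Of 17 tested amino acid transporters 6 were higher and 7 lower in M1-like macrophages, set against M2-like, at 24 h, shares close to the 34.6% and 38.1% of all genes. Of 18 in the reprogramming experiment 6 were higher and 4 lower untransfected (31.3% and 30.2% of all genes), 7 were higher and 3 lower with mock (30.9% and 29.8%), and 5 were higher and 5 lower in iM1 against the negative pool (12.5% and 13.9%). The median log2 fold change of the transporters was -0.04 at 24 h, where that of all genes was -0.06. Slc7a11, which exports glutamate for cystine, was at 495 ± 103 CPM in M1-like against 52.3 ± 9.30 CPM in M2-like macrophages at 24 h (3.24 ± 0.15, adjusted p = 1.71e-09) and was higher in iM1 than with the negative pool (53.9 ± 6.23 against 32.2 ± 5.31 CPM, 0.75 ± 0.20, adjusted p = 0.00566). Slc25a22, a mitochondrial glutamate carrier, was higher in M1-like macrophages at 24 h (2.02 ± 0.10, adjusted p = 1.79e-09). The aspartate-glutamate carrier Slc25a13 was lower in M1-like macrophages at 24 h (-1.85), in mock M1-like macrophages (-1.27) and in iM1 (-0.49), while its isoform Slc25a12 was higher in all 3 comparisons (1.35, 0.44 and 0.29). Both belong to the malate-aspartate shuttle together with Got1 and Got2, and of the 5 shuttle genes besides these transaminases 3 were higher and 2 lower in M1-like macrophages at 24 h (34.6% and 38.1% of all genes).

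Of 9 enzymes that take the amide of glutamine for nucleotides, amino sugars or NAD, 6 were lower and 2 higher in M1-like macrophages, set against M2-like, at 24 h, where 38.1% of all genes were lower and 34.6% higher. Cad (-1.68) and Ctps (-2.11), of pyrimidine synthesis, were lower, and Gfpt1, which starts the hexosamine pathway, was higher (181 ± 16.8 against 46.6 ± 3.81 CPM, 1.96 ± 0.08, adjusted p = 4.06e-10). Untransfected, 2 were higher and 2 lower (31.3% and 30.2% of all genes), and with mock 3 were higher and 1 was lower (30.9% and 29.8%), with Gfpt1 again higher (1.64 ± 0.07, adjusted p = 3.65e-19). Gfpt2, of the same list and with low counts, was higher in M1-like macrophages at 24 h (1.57 ± 0.212 against 0.445 ± 0.165 CPM, 1.80). With mock it was lower (1.39 ± 0.410 against 3.85 ± 0.175 CPM, -1.47). Of 4 tested genes that build glutathione from glutamate or cleave it, 4 were higher in M1-like macrophages at 24 h (34.6% of all genes), 2 untransfected (31.3%), 2 with mock (30.9%) and 3 in iM1 against the negative pool (12.5%), and 0 were lower in each. Their median log2 fold change was 0.45 at 24 h, 0.32 with mock and 0.52 in iM1, beside -0.06, 0.03 and 0.01 over all genes. Gclm, the modifier subunit of the first enzyme, had the largest log2 fold change of the 4 at 24 h, with mock and in iM1 (1.28, 0.69 and 0.97). Of the amino acid response genes, 8 of 14 were higher and 5 lower at 24 h (34.6% and 38.1% of all genes). The largest called changes were higher values of Stc2 (5.01), Ddit4 (4.285) and Vldlr (2.79). Stc2 and Vldlr had low counts, with means of 1.33 and 0.602 CPM in M1-like macrophages. Next came Phgdh, which was lower, at 3.05 ± 0.501 CPM in M1-like against 17.9 ± 2.23 CPM in M2-like macrophages (-2.55 ± 0.13, adjusted p = 2.67e-09). Of 15 in the reprogramming experiment, 7 were higher and 1 lower untransfected (31.3% and 30.2% of all genes). With mock 5 were higher (30.9% of all genes), among them Trib3 (2.09 ± 0.36, adjusted p = 7.07e-06) and Ddit3 (1.09 ± 0.14, adjusted p = 4.03e-08), and 1 was lower (Phgdh, -1.87, with 29.8% of all genes lower). In iM1 against the negative pool edgeR called 0 of 15, with 0 at an unadjusted p under 0.05 and 0 called by DESeq2.

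The genes most like each member over the 12 condition means of the reprogramming experiment were found among 2481 genes whose mean log2 CPM reached 2 and whose means spanned 1 log2 unit or more. The 12 points share the libraries of all genes, and Pearson's r is given as a description. Asns was most like Chac1 (0.900), Slc7a5, a leucine transporter (0.845), and Slc7a1 (0.805). Glul was like Lcp1 and Actg1 (0.988 and 0.984), Glud1 like Msra, Kctd12 and Antxr2 (0.991 to 0.989), Got1 like Rnf114, Psmb10 and Fbxw17 (0.952 to 0.948) and Got2 like Blm, Ift122 and Cd276 (0.953 to 0.948). Slc38a2 was most like Rap2b, Tspan14 and Rilp (0.971 to 0.953) and Gpt like Maml3, Cyb5rl and Prkag2 (0.903 to 0.894). The closest genes of Gpt2 (Gramd3, Tmem144, Taf9b, 0.846 to 0.785) and Slc1a5 (Cav2, Stk26, Gm2a, 0.743 to 0.723) were less alike. Between members, Glul and Glud1 had the highest r (0.942), followed by Glud1 and Slc38a2 (0.828), and the lowest was that of Got2 and Slc38a2 (-0.753).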

How the data were processed

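RNA sequencing of 54 libraries was used. In the polarization experiment 18 libraries covered 3 conditions in 3 mice, each sequenced as 2 technical replicates, and in the reprogramming experiment 36 libraries covered 12 conditions with 3 replicates each. The authors trimmed reads with Trimmomatic, mapped them with TopHat (TopHat2 in the submitters' processing notes) to GRCm38/mm10 and deposited read counts per gene from featureCounts, as whole numbers without normalization. Versions, the annotation counted and use of strand were not given in the sources used here. Symbols, coordinates and exon lengths came from GENCODE M21.

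Technical replicates, which differed little more than by counting noise (chi-square per gene 1.07 to 1.10), were summed. Counts were filtered with filterByExpr (minimum count 10, minimum total 15), TMM-normalised and tested with edgeR 4.0.16 (R 4.3.3) in 1 model per experiment and 1 coefficient per condition. DESeq2 1.42.0, which the authors used, was an alternative, beside RLE size factors, no filter, a replicate block, leaving out each replicate, the first technical replicate only and mock as reference. The SE is the log2 fold change divided by the square root of F. CPM used TMM library sizes, and log2 CPM a prior count of 2. Leaving out replicate 3 of the M2-derived conditions and fitting only the compared groups were added after seeing the data. The fits were tested on simulated data. Python 3.11.15 with pandas 2.3.3, NumPy 2.4.6 and matplotlib 3.10.9 made the tables and figures.

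In the polarization experiment, samples with the same number came from the same mouse, and their deviations from the condition means correlated with a median r of 0.25 (-0.06 to 0.42). Members and lists were chosen with earlier results of these data known. Beside the members, genes were named when they were siRNA targets, were among the 4 largest called changes of a list in 1 of 3 comparisons (M1-like against M2-like at 24 h or mock, iM1 against the negative pool), or were among the 3 genes most like a member. Of these, 1 gene is not reported here. Read counts limit precision most for Gpt. The cell markers come from fixed lists of 4 to 6 genes.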

Additional observations from a re-analysis of the deposited data

Results flagged for a closer look

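Glul was flagged since its difference between M1-like and M0 macrophages was not the same with mock as without transfection, by the test of that difference itself (0.41 on the log2 scale, adjusted p = 0.000608). It was lower in M1-like macrophages in both, at -1.47 untransfected and -1.06 with mock.

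The remaining results were flagged since every sample of the polarization experiment moved one way and every untransfected sample of the reprogramming experiment the other. The differences between the experiments were not tested. Got2 in M1-like against M0 macrophages was -0.47 at 24 h and 0.39 in the reprogramming experiment, and against M2-like macrophages -0.27 and 0.68, with all 4 of these values called. Gpt2 in M1-like against M0 macrophages was 0.70 (called) and -0.082 (not called), and against M2-like macrophages 0.14 (not called) and -0.48 (called). Gpt in M2-like against M0 macrophages was 0.14 and -0.25, with neither called.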

How the results depend on the processing

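Among the calls that held in every alternative run for them were those for Glul and Glud1 in M1-like against M0 and M2-like macrophages in both experiments, for Glul and Glud1 in iM1 against the negative pool and for Got2 in M1-like against M2-like macrophages. In the polarization experiment samples are paired by mouse, and the replicate block changed no call of a member there. In the reprogramming experiment the labels give only a replicate number. Samples with the same number correlated there with a median r of 0.18 (-0.25 to 0.63), against -0.083 for different numbers. Of 36 libraries, 34 correlated best with their own number. The replicates thus shared a structure that the main model of the reprogramming experiment left out. There, the replicate block gave 4 members called instead of 2 in mock M2-like against M0 macrophages, 5 instead of 2 in mock against untransfected M0, 5 instead of 3 in iM1 against the negative pool, 2 instead of 1 for siPparg and for the M1-like and M0 interaction, and 1 instead of 0 for the other 2 interactions. Of all 14172 genes, the block called 478 higher and 422 lower in mock M2-like against M0, and 1966 and 1504 in mock against untransfected M0. It called 2023 higher and 2253 lower in iM1 against the negative pool, and 580 and 588 for siPparg. Under this replicate block Asns was called in mock against untransfected M0 (-1.35, adjusted p = 0.0291), in mock M1-like against M0 (1.34, adjusted p = 0.0104) and in mock M2-like against M0 (1.74, adjusted p = 0.0140). The members it added in iM1 against the negative pool were Got1 (0.20, adjusted p = 0.0152) and Slc1a5 (-0.24, adjusted p = 0.0189). For siPparg it added Got2 (0.24, adjusted p = 0.0209), which fits of only the compared groups also called (0.23, adjusted p = 0.0381). Without the filter, 5 members were called in mock M1-like against M0 (main 3) and in iM1 against the negative pool (main 3), 3 in the M1-like and M0 interaction (main 1) and 1 in the M2-like and M0 interaction (main 0). DESeq2 called 2 in M2-like mock against untransfected, for siPparg and in the M1-like and M0 interaction (main 1 each), and 1 in the other 2 interactions (main 0). With mock as reference, 2 were called for siE2f1 (main 0), 2 for siPparg and 3 for siStat6 (main 1 each), and Glul turned from 0.06 to -0.22 for siE2f1. Without replicate 3 of the M2-derived conditions, 5 were called in mock M1-like against M0, 0 in M2-like mock against untransfected and for siStat6, 2 in the M1-like and M0 interaction and 1 in the M2-like and M0 interaction. In fits of only the compared groups, 5 were called in mock M1-like against M0, 0 in mock M2-like against M0 and in M2-like mock against untransfected, 4 in mock against untransfected M0, and 2 for siPparg and in the M1-like and M0 interaction. These counts of members check the calls, and most of them stand without the share of all genes in the same run. They are not read as results about the members. The cause of these changes was not tested.

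Leaving out 1 library gave 0 to 2 members called in untransfected M2-like against M0, 0 to 3 in mock M2-like against M0, 1 to 2 in mock against untransfected M0 and in the M1-like and M0 interaction, and 0 to 1 in M2-like mock against untransfected, for siStat6 and in the other 2 interactions. Glul in mock M2-like against M0 (0.22) lost its call without any of 5 of the 6 libraries compared (0.21 to 0.22), and Gpt2 there (0.45) without M0 mock replicate 2 (0.38) or M2-like mock replicate 2 (0.33). With 1 library left out, 1303 values of members stayed on their side of the threshold, 30 lost and 17 gained a call and 0 turned. Gpt2 in M1-like against M2-like macrophages at 24 h was called with RLE size factors (0.18), with the first technical replicates only (0.19) and without M1-like mouse 3 (0.19).

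Over all genes, calls without replicate 3 of the M2-derived conditions fell from 3750 to 2205 for iM1, 4188 to 2325 for siMyc, 814 to 176 for siPparg, 214 to 20 for siStat6 and 129 to 11 for siE2f1 against the negative pool, from 1658 to 733 for that pool against mock, from 251 to 149 for M2-like mock against untransfected, and from 160 to 95 and 802 to 502 for the interactions of M1-like with M2-like and of M2-like with M0. Mock as reference gave 1648 (siE2f1), 2441 (siPparg) and 1624 (siStat6). The replicate block gave 236 (siE2f1), 380 (siStat6) and 900 instead of 543 (mock M2-like against M0), and DESeq2 223 (siE2f1) and 363 (siStat6). No filter gave 237 (siE2f1), 387 (M2-like mock against untransfected), 306 (M1-like and M2-like interaction) and 42 instead of 0 (M1-like mock against untransfected). Fits of only the compared groups gave 342 (siE2f1), 111 (mock M2-like against M0), 495 (M2-like and M0 interaction) and 735 instead of 1286 (M1-like and M0 interaction). Depth limits Gpt most, with 61 to 228 reads per mouse and condition and 66 to 131 per library.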
